A study of Homo sapiens with 4 samples.

Results

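The 113 genes described here are the expressed long intergenic non-coding RNAs (lincRNAs) of HEK293T cells in which PBRM1 had been disrupted and then supplied again from a plasmid. They are the genes that the deposited count table classes as lincRNA and that held at least 200 reads summed over its 4 libraries, with MALAT1, NEAT1, GAS5, DANCR, ZFAS1 and the SNHG genes set aside. The table held 58735 genes, of which 7629 were lincRNA genes and 3194 of these had a read. At the minimum of 200 reads there were 118 lincRNA genes, and 5 of them (SNHG8, SNHG4, SNHG15, NEAT1 and MALAT1) were set aside by name. The members were thus chosen by summed read number, and their abundance is a description. The ratio between libraries was not part of the choice, and the lowest count of any member in any library was 34 reads. A member near the minimum may still have reached it through a library in which it was high.

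HEK293T is an established human embryonic kidney line. All 4 libraries came from the same CRISPR-edited PBRM1 knockout cells, transfected for 48 h with GFP-tagged PBRM1, either as the mutants P1048R, T1202K and C1233W or as the unaltered protein (WT). There was 1 library per construct, so each difference below is a difference between libraries with no replicate check, and no p-value is given. The share of cells that took up a plasmid, and whether the edited line is 1 clone, are not given in these sources. Cells without a plasmid were not analysed here.

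PBRM1 (BAF180) belongs to the PBAF complex, which moves nucleosomes, and its BAH domains, where the mutants are changed, are known as protein interaction modules. LincRNAs are transcribed by RNA polymerase II from genes that lie between protein-coding genes, are usually spliced and polyadenylated like messenger RNA, and are mostly less abundant and more cell-type-specific than messenger RNA. Some act in the nucleus on chromatin, such as XIST in X-chromosome inactivation, and some in the cytoplasm, such as NORAD, which binds PUMILIO proteins. Many start next to a coding gene and run away from it, from a shared promoter region, and for most of the others no role is established.

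PBRM1 itself stood at 8805 CPM in P1048R, 15262 CPM in T1202K and 60509 CPM in C1233W, against 22768 CPM in WT, where CPM is the usual rate of reads, taken on library sizes scaled by TMM (trimmed mean of M values). C1233W was thus the highest and P1048R the lowest, and its reads may come from the plasmid or from the edited gene. The construct and the amount of its PBRM1 transcript cannot be told apart in any comparison below. The libraries held between 10246250 and 11205322 counted reads, and 3 reads, the limit that a count of 0 allows, came to 0.251 to 0.321 CPM. Of the HEK293T markers, the neurofilament gene NEFM was at 172, 185 and 192 CPM in P1048R, T1202K and C1233W, against 345 CPM in WT, a log2 ratio of −1.01 in P1048R. NEFL, VIM and PAX2 were present in every library, PAX2 at 5.65 to 7.12 CPM. Among the 7 markers of other cell types, CD3E had no read, KRT5, PTPRC and PECAM1 were at or under 0.290 CPM, and LUM was between 1.09 and 2.22 CPM. The liver gene ALB had 18, 4 and 18 reads in P1048R, T1202K and C1233W, against 2 in WT, and was the marker of another type that passed the 2-fold rule given below, as higher in P1048R and C1233W. COL1A1 was at 15.8, 22.4 and 30.2 CPM in P1048R, T1202K and C1233W, against 30.1 CPM in WT. The part of any of these in the results below was not tested. In bulk RNA, fewer cells with a transcript and less of it per cell cannot be told apart.

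The 113 lincRNAs took 51547 reads in P1048R, 41931 in T1202K and 52902 in C1233W, against 54524 in WT, which is 0.460%, 0.381% and 0.511% of those libraries, against 0.532% of WT. XIST alone held 65.7% of these reads. XIST lies outside the rule by which genes were to be named and was named after its values were seen. Without it the sums were 1608, 1439 and 1752 CPM in P1048R, T1202K and C1233W, against 1641 CPM in WT. The T1202K library thus had the lowest sum with XIST and without it.

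Most members were low. The median member had 381 reads over the 4 libraries and a mean level of 8.85 CPM, 95 of 113 averaged under 20 CPM, 60 had fewer than 400 reads, and 16 had more than 1000. The members just inside the minimum were AP003486.1 with 204 reads and AC016705.2 and AC009283.1 with 200 each. The lincRNAs just outside were AC103702.2 with 198 reads and AP003392.4 and URB1-AS1 with 196 each. Their largest ratio to WT in size was 0.60 on the log2 scale, for AP003392.4 in C1233W (−0.60), so the genes on either side of the minimum were alike in that none reached 2-fold.

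Per length, the order of abundance differed from the order by reads. AC005909.1, a clone-named gene on chromosome 18 (68427030 to 68436918, plus strand) with 755 bases of exon, averaged 134 CPM per kb over the 4 libraries. XIST averaged 124 CPM per kb, NORAD 36.8, the FOXC1 neighbour FOXCUT 23.2, LINC02381 14.3 and MAPKAPK5-AS1 12.9 CPM per kb. NORAD (chromosome 20, 36045622 to 36050960, minus strand; ENSG00000260032), whose loss leads to unstable chromosomes in human cells, was at 182, 163 and 223 CPM in P1048R, T1202K and C1233W, against 217 CPM in WT. Its log2 ratios to WT were −0.25 (−0.34 to −0.17), −0.41 (−0.50 to −0.32) and 0.04 (−0.05 to 0.13), where the range is the 95% counting interval. NORAD was therefore within 1.37-fold across the 4 libraries.

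As genes, the members were shorter and simpler than coding genes. Their merged exons had a median length of 3306 bases (333 to 37027), against 5439 bases for the protein-coding genes with at least 200 reads. The median member had 3 exon blocks and the median coding gene 11, and 38 members had a single block. Median GC content was 44.6% (27.8% to 63.0%) for the members and 47.5% for the coding genes. By name, 45 were known by a clone identifier only, 28 by a LINC number, 17 by a neighbouring gene, 4 as microRNA hosts and 19 by a symbol of their own. The bodies of 61 members overlapped another gene, and in 37 an exon did so on either strand, 17 of them on the same strand. No strand setting is given for the counting, so the counts of those 37 may include reads of the other gene.

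Levels differed little between libraries for most members. The ratio of the highest to the lowest CPM had a median of 1.49 over the 113, it was under 1.5 for 58 and at least 2 for 13, and it reached 4.45 for AC245060.5. GHET1, singled out after its values were seen, was the other extreme, at 5.44, 5.48 and 5.51 CPM in P1048R, T1202K and C1233W, against 5.46 CPM in WT.

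A member was counted as different between 2 libraries when they differed at least 2-fold (1 log2 unit) and the 95% counting interval left out 0. This is called the size rule here. Of the 113 members, 5 were higher and 4 lower in P1048R than in WT, 4.42% and 3.54%. Over all 16262 genes with at least 1 CPM in a library the shares were 4.48% higher and 3.02% lower, and over the 11817 genes with at least 200 reads, 3.27% and 1.03%. In T1202K against WT, 3 members were higher and 4 lower, 2.65% and 3.54%, beside 2.95% and 2.21% of all genes and 2.05% and 0.465% of the genes with at least 200 reads. In C1233W against WT, 5 were higher and 1 lower, 4.42% and 0.885%, beside 4.19% and 1.21% of all genes and 1.79% and 0.296% of the genes with at least 200 reads. The counts over the members were close to the shares over all genes, and above those over the genes held to the same read minimum. The 3 comparisons share the WT library. The split depended on scaling: on total counts, 12 members were higher and 3 lower in P1048R, 7 and 3 in T1202K, and 6 and 1 in C1233W, and on DESeq2 size factors 6 were higher and 3 lower in P1048R. On total counts the medians of all genes rose too, to 0.18, 0.17 and 0.12. The shares of all genes passing under these scalings are not given.

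**Figure D1:**
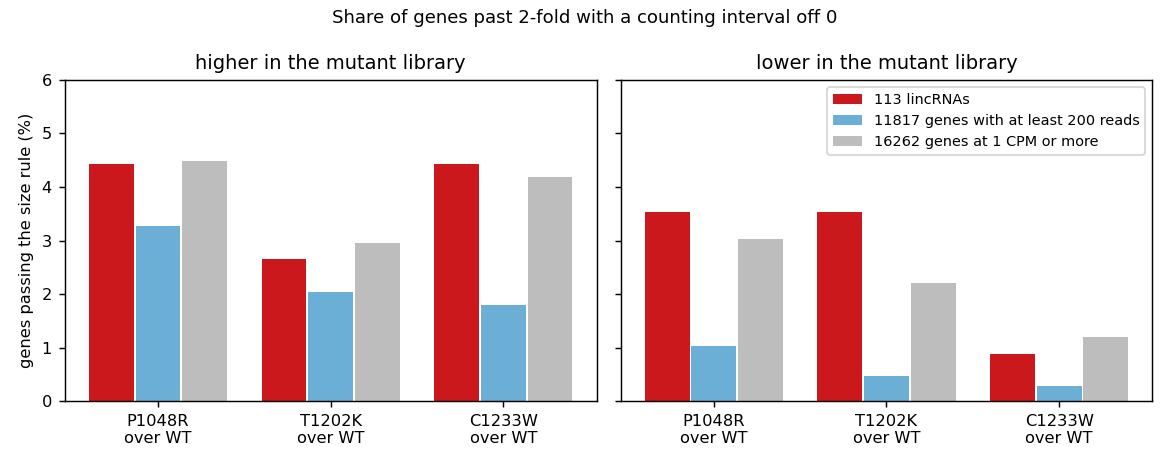
Share of genes passing the size rule (vertical axis, %) in each mutant library over WT, higher in the left panel and lower in the right panel, for the 113 lincRNAs (red), the 11817 genes with at least 200 reads (blue) and the 16262 genes with at least 1 CPM in a library (grey). The red bars stand above the blue ones in all 6 groups, and close to the grey ones except for the lower genes of T1202K, 3.54% against 2.21%.

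Since the genes with at least 200 reads are mostly far deeper than these lincRNAs, the shares were also taken within bins of reads. Among genes with 200 to 399 reads, 3.33% of the 60 members in that bin were higher and 3.33% lower in P1048R, beside 7.91% and 4.1% of all genes in the bin. In T1202K the members' shares there were 0% and 1.67%, beside 5.05% and 1.83%, and in C1233W 5% and 0%, beside 6.81% and 0.586%. At these depths no member share exceeded that of other genes. Among the 32 members with 400 to 799 reads, 3.12%, 3.12% and 0% were higher in P1048R, T1202K and C1233W, beside 7.16%, 4.72% and 3.61% of all genes in the bin. The shares lower than WT were 6.25%, 6.25% and 3.12%, beside 1.44%, 0.666% and 0.333%, and rest on AC245060.5 and LINC01355. Among the 21 members with at least 800 reads, 9.52% were higher in each mutant, which is the same 2 genes, PVT1 and EPB41L4A-AS1, beside 1.72%, 1.02% and 0.613% of all genes that deep in P1048R, T1202K and C1233W. Lower than WT were 0%, 4.76% (AC005909.1) and 0%, beside 0.462%, 0.208% and 0.243%.

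The list as a whole was near the background. The median log2 ratio to WT of the members was −0.01 in P1048R (quartiles −0.30 and 0.31), −0.11 in T1202K (−0.45 and 0.28) and 0.08 in C1233W (−0.18 and 0.45). The medians of all genes were −0.04, −0.01 and −0.01 in the same mutants, so relative to all genes the members stood at 0.03, −0.10 and 0.09. Medians also differed with depth. For genes with 200 to 399 reads they were −0.01, 0.04 and 0.15, beside 0.01, −0.13 and 0.16 for the members there. With 400 to 799 reads they were 0.07, 0.11 and 0.10, beside −0.07, −0.08 and −0.02. With at least 800 reads they were −0.05, −0.01 and −0.09, beside 0.01, −0.11 and 0.07. On total counts the medians of all genes were 0.18, 0.17 and 0.12 and the members' relative medians the same. That was fixed in advance, since a change of scaling moves the medians of the members and of all genes alike.

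**Figure D2:**
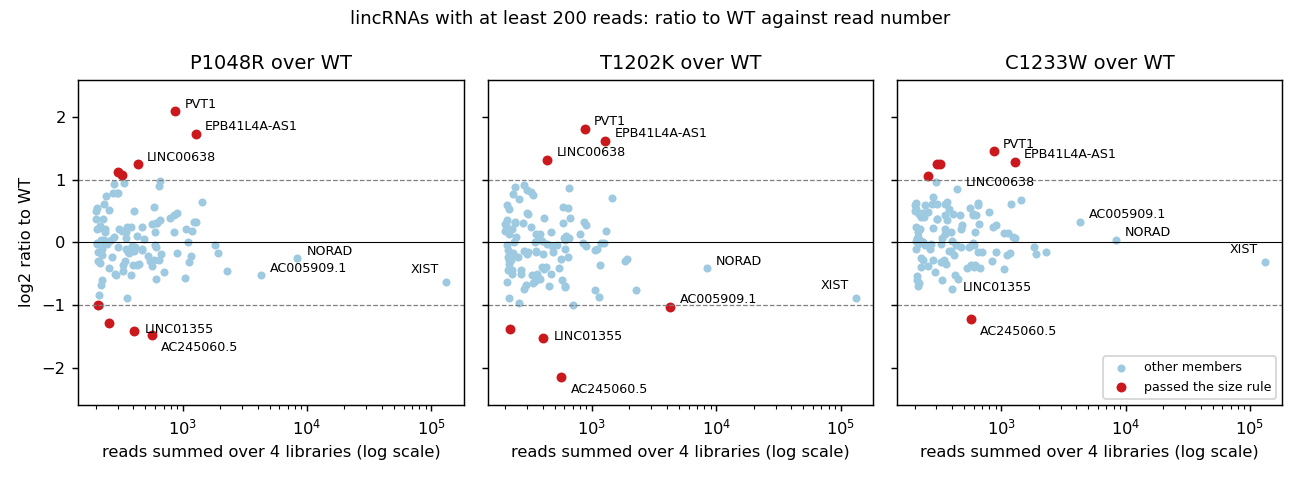
Log2 ratio to WT (vertical axis) of each of the 113 lincRNAs against its reads summed over the 4 libraries (horizontal axis, log scale), in P1048R, T1202K and C1233W; red points passed the size rule and dashed lines mark 2-fold. PVT1 and EPB41L4A-AS1 lie above 2-fold and AC245060.5 below it in all 3 panels, and most members lie near 0.

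In all, 13 members passed the rule in some pair of libraries and 100 in none. Against WT, 3 members passed in all 3 mutants, 4 in exactly 2 and 5 in exactly 1, and none passed in opposite directions in 2 mutants. Of the 3, PVT1 and EPB41L4A-AS1 were lower in WT than in every mutant, which held for 1.25% of all genes and 0.804% of those with at least 200 reads, and AC245060.5 was higher in WT, which held for 0.332% and 0.0846%. For the other counts of this paragraph no share over all genes is given, so they have no background. The comparisons with WT also share that library, so passing in several mutants is not a repeated finding.

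EPB41L4A-AS1 (chromosome 5, 112160526 to 112164276, plus strand; ENSG00000224032) hosts a small nucleolar RNA in an intron and overlaps the coding gene it is named for. It had 466, 408 and 295 reads in P1048R, T1202K and C1233W, against 109 in WT, or 39.0, 36.0 and 28.5 CPM, against 11.7 CPM. P1048R was the highest library and WT the lowest, below every mutant by more than 2-fold. The log2 ratios to WT were 1.74 (1.44 to 2.06), 1.62 (1.32 to 1.95) and 1.29 (0.97 to 1.62). Its exons overlap those of EPB41L4A on the opposite strand, a gene at 5.11, 4.06 and 5.61 CPM in P1048R, T1202K and C1233W, against 3.21 CPM in WT. The overlapping gene had 30 to 61 reads per library. The window around its start (RefSeq, GRCh38.p14, chr5:112160276-112160575, plus strand, 250 bases before the start and 50 after) is shown because this member has the most reads of those that moved in all 3 mutants. It holds 7 CpG and has a GC content of 52.3%, and a search of both strands for the CCAAT box, GC box, E-box, CRE core and TATA box found none of them among its letters:
EPB41L4A-AS1: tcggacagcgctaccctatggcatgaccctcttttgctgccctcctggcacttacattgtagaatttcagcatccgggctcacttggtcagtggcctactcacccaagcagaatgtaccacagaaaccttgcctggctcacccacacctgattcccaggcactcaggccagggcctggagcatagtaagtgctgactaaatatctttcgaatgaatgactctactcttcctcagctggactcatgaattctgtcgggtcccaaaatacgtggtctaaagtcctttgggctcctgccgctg

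PVT1 (chromosome 8, 127794533 to 128101253, plus strand; ENSG00000249859) is a lincRNA downstream of MYC that is amplified together with it in tumours and hosts a cluster of microRNAs. It had 346 reads in P1048R, 270 in T1202K and 192 in C1233W, against 63 in WT, which is 28.98, 23.84 and 18.57 CPM, against 6.74 CPM. As for EPB41L4A-AS1, all 3 mutant libraries were higher than WT, with P1048R the highest. The log2 ratios to WT were 2.09 (1.71 to 2.52) in P1048R, 1.81 (1.42 to 2.24) in T1202K and 1.45 (1.04 to 1.90) in C1233W. MYC, the nearest coding gene on the same strand, whose start lies 59099 bases away, was at 49.9, 64.9 and 73.9 CPM in P1048R, T1202K and C1233W, against 85.4 CPM in WT. MYC thus ran in the other direction, at log2 ratios of −0.77, −0.40 and −0.21, none of which passed the rule. MIR1204, the microRNA within its exons that the table counts, had no read in any library.

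AC245060.5 (chromosome 22, 22283928 to 22287220, minus strand; ENSG00000274422), a clone-named gene of a single exon block near VPREB1 in the immunoglobulin lambda region, was the reverse. It had 118 reads in P1048R, 70 in T1202K and 122 in C1233W, against 257 in WT, or 9.88, 6.18 and 11.8 CPM, against 27.5 CPM. WT was more than 2-fold above every mutant library and T1202K was the lowest. The log2 ratios to WT were −1.47 (−1.80 to −1.16), −2.15 (−2.56 to −1.77) and −1.22 (−1.54 to −0.90). Its exons are 28.7% GC, where the lowest of any member was 27.8%, and no other gene overlaps its exons. With the trend of the ratios on GC content and length taken out over all genes, its ratios were −1.44, −2.04 and −1.09, those of PVT1 were 2.14, 1.78 and 1.48, and those of EPB41L4A-AS1 were 1.75, 1.63 and 1.31.

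**Figure D3:**
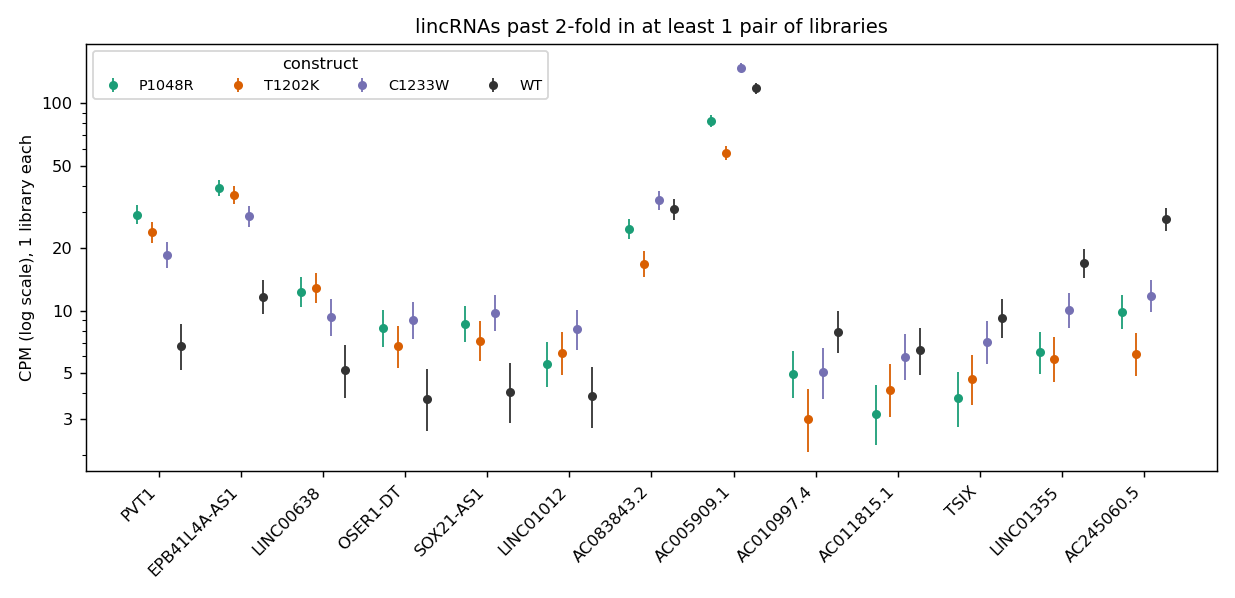
Level in CPM (vertical axis, log scale) of the 13 lincRNAs that passed the size rule in at least 1 pair of libraries, in P1048R, T1202K, C1233W and WT, 1 library each, ordered by the ratio of P1048R to WT; bars are exact 95% Poisson intervals and cover counting error only. The WT point is the lowest of the 4 for the genes at the left, from PVT1 to LINC01012, and the highest for AC010997.4, AC011815.1, TSIX, LINC01355 and AC245060.5 at the right.

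Among the members that passed in exactly 2 mutants, LINC00638 and LINC01355 passed in P1048R and T1202K, and SOX21-AS1 and OSER1-DT in P1048R and C1233W. LINC00638 (chromosome 14, 104821201 to 104823718) was at 12.3, 12.9 and 9.29 CPM in P1048R, T1202K and C1233W, against 5.14 CPM in WT, with log2 ratios of 1.25 (0.78 to 1.76), 1.32 (0.85 to 1.83) and 0.85 (0.34 to 1.39). LINC01355 (chromosome 1, 23281308 to 23286752) was at 6.28, 5.83 and 10.1 CPM in the same mutants, against 16.9 CPM in WT, with log2 ratios of −1.42 (−1.84 to −1.02), −1.53 (−1.97 to −1.11) and −0.75 (−1.12 to −0.38). In both genes the C1233W library lay between WT and the other mutants. The difference between mutants was under 2-fold in each pair, so passing in P1048R and T1202K and not in C1233W does not set these mutants apart.

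SOX21-AS1 and OSER1-DT each start next to a coding gene and run away from it. SOX21-AS1 (chromosome 13, 94712716 to 94716246, plus strand) had 103, 81 and 101 reads in P1048R, T1202K and C1233W, against 38 in WT, or 8.63, 7.15 and 9.77 CPM, against 4.07 CPM. Its log2 ratios were 1.07 (0.54 to 1.66), 0.80 (0.24 to 1.41) and 1.25 (0.71 to 1.84), of which that of T1202K did not pass, and that of P1048R did not with a pseudocount of 5 (0.98). SOX21, a transcription factor of neural progenitors whose start lies 317 bases away, had 37, 46 and 38 reads, against 16 in WT. The ratios of SOX21 were 0.83 (−0.03 to 1.80), 1.22 (0.40 to 2.17) and 1.08 (0.23 to 2.04), so it passed in T1202K and C1233W, at few reads. The lincRNA and its neighbour were both lowest in WT.

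OSER1-DT (chromosome 20, 44210960 to 44226027, plus strand) had 98, 76 and 93 reads in P1048R, T1202K and C1233W, against 35 in WT, or 8.209, 6.711 and 8.996 CPM, against 3.745 CPM. Its log2 ratios were 1.12 (0.56 to 1.73), 0.83 (0.25 to 1.46) and 1.25 (0.69 to 1.87). OSER1, named for its response to oxidative stress and starting 169 bases away, was at 53.6, 48.0 and 48.7 CPM, against 29.3 CPM in WT. OSER1 was thus also lowest in WT, at ratios of 0.87, 0.71 and 0.73 that did not pass the rule. The windows around the starts of these 2 lincRNAs are shown because each lies between 2 transcripts that were lowest in WT. In capitals are the letters of the motifs a search found, on either strand: a CCAAT box (CCAAT) and a TATA box (TATAAA) for SOX21-AS1, and 3 GC boxes (GGGCGG) and an E-box (CACGTG) for OSER1-DT.
SOX21-AS1: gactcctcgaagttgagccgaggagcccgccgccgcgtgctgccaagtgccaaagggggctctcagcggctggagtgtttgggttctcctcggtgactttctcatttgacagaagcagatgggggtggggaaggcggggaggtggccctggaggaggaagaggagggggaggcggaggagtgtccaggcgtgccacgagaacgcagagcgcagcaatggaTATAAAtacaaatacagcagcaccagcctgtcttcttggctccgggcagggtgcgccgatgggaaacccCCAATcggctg
OSER1-DT: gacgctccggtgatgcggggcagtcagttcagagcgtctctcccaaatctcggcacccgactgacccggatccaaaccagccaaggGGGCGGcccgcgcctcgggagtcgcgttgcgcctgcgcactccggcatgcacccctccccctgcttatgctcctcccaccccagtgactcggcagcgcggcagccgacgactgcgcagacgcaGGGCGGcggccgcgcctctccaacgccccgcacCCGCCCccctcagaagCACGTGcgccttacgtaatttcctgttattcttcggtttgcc

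The first of these windows is RefSeq GRCh38.p14 chr13:94712466-94712765 (plus strand, 62.3% GC, 18 CpG) and the second chr20:44210710-44211009 (plus strand, 68.3% GC, 34 CpG). A RefSeq window was matched for 59 of the 113 members, and 5 motifs were searched on both strands, each on its own, so that a base may belong to more than 1 motif. The CCAAT box was in 47.5% of the 59 members' windows and 35.7% of all 27305 windows, the GC box in 45.8% and 44.6%, the CRE core TGACG in 30.5% and 25%, the TATA box in 10.2% and 12%, and the E-box in 6.78% and 7.43%. These are matches of letters and not binding sites.

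The 5 members that passed in exactly 1 mutant were lower in P1048R or T1202K, apart from LINC01012. TSIX, the antisense partner of XIST that restrains Xist in mouse, was at 3.77, 4.68 and 7.06 CPM in P1048R, T1202K and C1233W, against 9.20 CPM in WT, with log2 ratios of −1.28 (−1.84 to −0.75), −0.97 (−1.50 to −0.46) and −0.38 (−0.85 to 0.08). AC011815.1 was at 3.183, 4.150 and 5.997 CPM, against 6.420 CPM in WT, and passed in P1048R by the smallest margin of any member, at −1.01 (−1.64 to −0.40), which was lost on total counts (−0.78), on DESeq2 size factors (−0.96), with a pseudocount of 5 (−0.95) and with thinned counts (−0.94). With 38 to 62 reads per library its interval spans more than 1 log2 unit, and its exons overlap ZSCAN30 on the same strand, a gene at 79.3 to 94.99 CPM. AC010997.4 was at 4.94, 3.00 and 5.03 CPM, against 7.92 CPM in WT, and passed in T1202K at −1.39 (−2.03 to −0.79). LINC01012, on chromosome 6, was the member that passed in C1233W alone, at 5.53, 6.27 and 8.13 CPM, against 3.85 CPM in WT, with 1.07 (0.50 to 1.68) in C1233W, or 0.97 with a pseudocount of 5. The fifth was AC005909.1, which passed in T1202K.

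AC005909.1, the highest member per length, varied as much between mutants as against WT. It had 980, 655 and 1531 reads in P1048R, T1202K and C1233W, against 1103 in WT, or 82.1, 57.8 and 148 CPM, against 118 CPM. C1233W was the highest library and T1202K the lowest. The ratio of T1202K to WT was −1.03 (−1.17 to −0.89), whereas those of P1048R and C1233W, −0.52 and 0.33, did not pass. That of T1202K no longer passed on total counts (−0.85) or with the GC and length trend removed (−0.82).

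Between the mutants, few lincRNAs differed. None passed the rule between T1202K and P1048R in either direction (0.572% of all genes higher and 0.664% lower, and 0.0169% and 0.0338% of those with at least 200 reads). None passed between C1233W and P1048R either (3.73% and 0.806% of all genes, and 0.846% and 0.186% of those with at least 200 reads). Between C1233W and T1202K, 2 members were higher in C1233W and none lower, 1.77% and 0%, beside 3.05% and 0.486% of all genes and 0.508% and 0.127% of those with at least 200 reads. These were AC005909.1, at a log2 ratio of 1.36 (1.22 to 1.49), and AC083843.2, at 34.1 CPM in C1233W against 16.8 CPM in T1202K, 1.02 (0.77 to 1.29). AC083843.2 no longer passed on total counts (0.98) or with that trend removed (0.97). It was at 24.8 CPM in P1048R and 30.8 CPM in WT.

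In 2 of these pairs the list as a whole was off 0. In C1233W over T1202K the median of the members was 0.22, with 80 of 113 above 0 (70.8%), against a median of −0.02 over all genes and 40.4% above 0 over the genes with at least 200 reads. Other non-coding classes at that minimum lay between, with 62.7% of 150 antisense genes (median 0.08) and 66.1% of 59 processed transcripts (median 0.09) above 0. In T1202K over P1048R the members' median was −0.13, with 82 of 113 below 0 (72.6%), against a median of 0.03 over all genes and 44.2% below 0 over those with at least 200 reads. Here too the other classes lay between, with 60.7% of antisense genes (median −0.11) and 57.6% of processed transcripts (median −0.06) below 0. A shift in these directions was thus not particular to the lincRNAs. Both comparisons use the T1202K library, in which the sum of the members was the lowest. In C1233W over P1048R the median was 0.05, against −0.00 over all genes. Medians by depth were not taken for these pairs, so the part of depth in them was not tested.

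Members were also read by role. The X-inactivation centre supplied XIST, TSIX, FTX and JPX. XIST (chromosome X, 73820651 to 73852723, minus strand; ENSG00000229807), the RNA that coats an inactive X chromosome, had 32356, 25630 and 34787 reads in P1048R, T1202K and C1233W, against 39190 in WT. Its log2 ratios were −0.63, −0.89 and −0.32, each with a counting interval narrower than 0.1, and none reached 2-fold. FTX, an activator of Xist in mouse, was at 22.2, 19.4 and 24.7 CPM in P1048R, T1202K and C1233W, against 33.0 CPM in WT. JPX, another such activator, was at 5.78, 6.45 and 5.22 CPM, against 3.74 CPM in WT. XIST, TSIX and FTX were highest in WT and JPX was lowest there. TSIX shares exon sequence with XIST on the opposite strand, at 0.139, 0.207 and 0.210 TSIX reads per 100 XIST reads in P1048R, T1202K and C1233W, against 0.219 in WT, and FTX and JPX share exon sequence with each other. With the strand setting unknown, how much of the TSIX count belongs to XIST cannot be told apart. The 9 members on the X had medians of −0.30, −0.43 and −0.32, beside −0.01, −0.11 and 0.08 for all 113. XIST, TSIX, FTX and JPX are among the 9 and come from the same centre, so the 9 are not separate observations. No median over all genes of the X is given.

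By symbol, 4 members are named as microRNA hosts, and none of the 4 passed the rule in any mutant against WT, whereas PVT1, whose body also holds microRNAs, passed in each. MIR222HG, host of miR-221 and miR-222, was at 6.11, 7.77 and 8.90 CPM in P1048R, T1202K and C1233W, against 11.3 CPM in WT, the widest range of the 4. MIR99AHG, host of miR-99a and let-7c, was at 8.04, 6.53 and 11.03 CPM, against 7.17 CPM in WT. MIR503HG was at 4.77, 5.03 and 3.87 CPM, against 5.88 CPM in WT, and MIR4435-2HG at 13.7, 14.6 and 13.7 CPM, against 14.1 CPM. The medians of the 4 were −0.17, −0.18 and −0.19, beside all-gene medians of −0.04, −0.01 and −0.01. CYTOR, a near-identical copy of MIR4435-2HG with which reads may be shared, was at 7.54, 6.62 and 6.87 CPM, against 10.4 CPM in WT.

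Of 23 widely studied lincRNAs listed, 7 were members: PVT1, EPB41L4A-AS1, NORAD, CRNDE, CYTOR, JPX and LINC00467. The first 2 were higher in each mutant and the other 5 passed in none, with list medians of −0.10, −0.15 and 0.22. Of all genes, 4.48%, 2.95% and 4.19% were higher in P1048R, T1202K and C1233W. The list was chosen with earlier results of these data known, so its count says nothing about widely studied lincRNAs as a group. Some listed genes were no members because the deposited table gives them another class, such as TUG1 and OIP5-AS1, with 2223 and 1064 reads in WT. Of lincRNAs with a reported micropeptide, 3 of 18 were members and none passed. CRNDE, raised in colorectal tumours, was at 26.6, 24.2 and 27.5 CPM in P1048R, T1202K and C1233W, against 30.9 CPM in WT. LINC00467 was at 7.71, 7.42 and 9.58 CPM, against 8.24 CPM in WT, and LINC00665 at 13.9, 20.6 and 11.8 CPM, against 15.7 CPM. NORAD was the only member on the list of lincRNAs of p53 and DNA damage, and no listed imprinted lincRNA was a member. A list of lincRNAs near developmental transcription factor genes also held no member. It named HAGLR, HOTAIRM1 and HOTAIR, with 334, 206 and 238 reads in WT alone, but the deposited table classes these as antisense. It did not name SOX21-AS1, MNX1-AS1, FOXD2-AS1, FENDRR or FOXCUT, which lie beside such genes.

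Genes for the machinery that removes or ends such transcripts were listed too. Of the nuclear RNA exosome and its adaptors, 24 of 24 measured genes passed in no mutant against WT, with medians of −0.07, −0.04 and −0.23. The farthest was ZFC3H1, a scaffold of the poly(A) tail exosome targeting connection, at 85.02, 81.24 and 98.47 CPM in P1048R, T1202K and C1233W, against 145 CPM in WT. Of Integrator subunits, which end transcription at many non-coding genes, none of 15 passed, with medians of 0.12, 0.09 and −0.15. Few coding genes with at least 200 reads passed at all, 3% higher and 0.796% lower in P1048R, 1.88% and 0.241% in T1202K, and 1.69% and 0.224% in C1233W, so that counts of 0 in lists this short are near that background. INTS12 was the farthest of them, at 56.2, 55.3 and 49.6 CPM, against 33.2 CPM in WT.

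Other abundant members stayed under 2-fold. AC015813.1 was at 48.5, 39.4 and 60.2 CPM in P1048R, T1202K and C1233W, against 66.9 CPM in WT. EBLN3P, derived from a bornavirus sequence, was at 44.1, 41.1 and 43.6 CPM, against 49.5 CPM, and AC060780.1, whose exons overlap NBR1, at 44.4, 37.3 and 43.6 CPM, against 45.9 CPM. These 3 were highest in WT. LINC02381 was at 35.7, 37.4 and 36.5 CPM, against 22.8 CPM in WT, alike in the 3 mutants, with log2 ratios of 0.65, 0.71 and 0.68. MAPKAPK5-AS1 was at 33.6, 30.3 and 28.1 CPM, against 26.6 CPM, HCG11 at 33.4, 26.4 and 28.1 CPM, against 26.5 CPM, and OLMALINC, named for oligodendrocyte maturation, at 27.1, 23.7 and 36.4 CPM, against 23.9 CPM. None of these 7 passed the size rule.

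For each member, the protein-coding gene with the nearest start was set beside it. That start was within 50 kb for 75 members and within 5 kb for 38, and 21 members started within 1 kb of a coding gene and ran away from it. The medians of these 21 were 0.30, 0.07 and 0.43 in P1048R, T1202K and C1233W over WT, beside −0.06, −0.14 and 0.01 for the other 92 members. Median GC content was 47.6% in the 21 and 43.4% in the 92.

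The ratios of neighbours and lincRNAs were weakly related. Over the 20 divergent pairs within 1 kb whose coding gene had at least 200 reads, Pearson's r between the ratios was 0.14, 0.35 and 0.26 in P1048R, T1202K and C1233W over WT, and Spearman's rho 0.13, 0.34 and 0.29. Over the 57 pairs with starts at least 5 kb apart, r was −0.14, −0.07 and 0.19, and rho −0.11, −0.08 and 0.27. In C1233W rho was thus much the same in both sets of pairs. These are correlations across genes, which are not independent replicates, and both members of a pair are divided by the same WT library. Within 50 kb, a neighbour passed the rule in 4 instances, all higher in the mutant, and the lincRNA passed beside it in 1, SOX21-AS1 in C1233W. For the 75 members concerned, that is 1 neighbour in P1048R, 1 in T1202K and 2 in C1233W. Of coding genes with at least 200 reads, 3%, 1.88% and 1.69% were higher and 0.796%, 0.241% and 0.224% lower. Counts this small are near that background. SOX21 made up 2 of the 4 instances and, at 137 reads, is under its read minimum. RAB30, a GTPase of the Golgi, was at 43.3, 36.3 and 36.6 CPM, against 19.7 CPM in WT, and passed in P1048R at 1.13 (0.89 to 1.39), whereas RAB30-AS1, 143 bases away, was at 12.6, 11.5 and 14.4 CPM, against 18.8 CPM, at −0.58 in P1048R. ARNT2, a bHLH-PAS transcription factor, passed in C1233W at 1.09 (0.76 to 1.43), with AC016705.2, 775 bases away, at 0.50. So within these pairs a neighbour could differ with its lincRNA or against it.

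**Figure D4:**
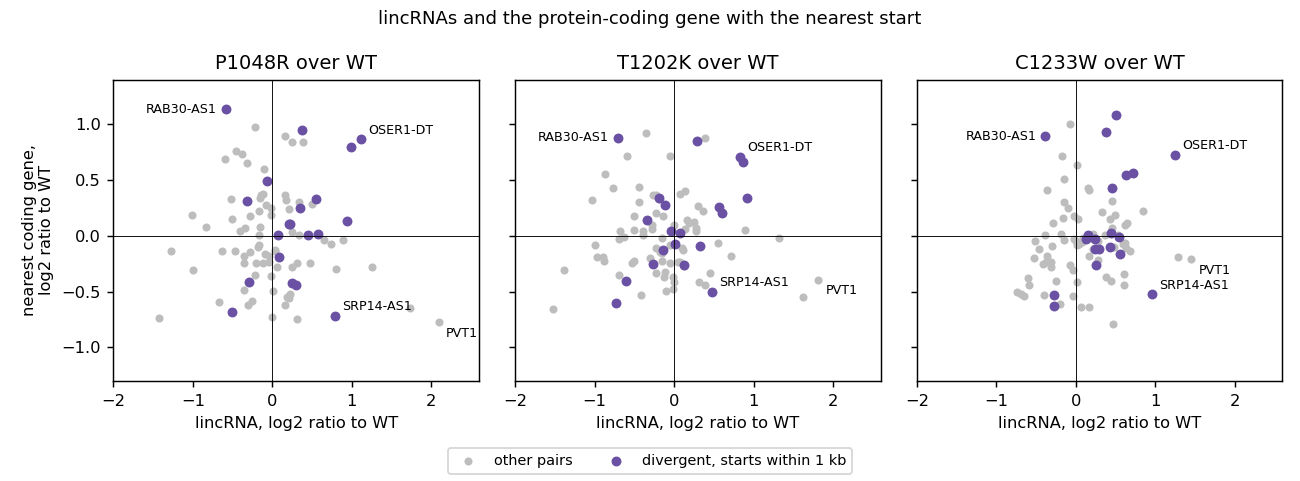
Log2 ratio to WT of the coding gene with the nearest start (vertical axis) against that of the lincRNA (horizontal axis), for the 93 members whose neighbour had at least 200 reads, in P1048R, T1202K and C1233W. Purple points are divergent pairs with starts within 1 kb and lie on both sides of 0, from OSER1-DT with both genes above WT to RAB30-AS1 and SRP14-AS1, where they differ in sign.

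The same was seen among members chosen after their values were known. AF117829.1 starts 20 bases from RIPK2, and both were lowest in WT, at ratios of 0.99, 0.87 and 0.64 for the lincRNA and 0.80, 0.66 and 0.55 for the kinase gene in P1048R, T1202K and C1233W. SRP14-AS1, in contrast, had 0.78, 0.47 and 0.96 where SRP14, a protein of the signal recognition particle 123 bases away, had −0.72, −0.50 and −0.52. CRNDE had −0.22, −0.35 and −0.17 where the homeobox gene IRX5, 1673 bases away, had 0.98, 0.92 and 0.72. None of these ratios passed the rule.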

How the data were processed

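RNA was sequenced in 4 libraries of PBRM1-disrupted HEK293T cells, 1 per construct. The deposited values are whole-number read counts per gene, not normalized by the authors. The submitters' processing notes list Trim Galore, HISAT2 and featureCounts with hg38 and give neither versions nor a strand setting. Per the labels' protocols, libraries were prepared from total RNA with a stranded kit.

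Library sizes were scaled by TMM in edgeR 4.0.16 (R 4.3.3), with factors of 1.07, 1.03 and 0.999 for P1048R, T1202K and C1233W, and 0.912 for WT. A filter of 1 CPM, reached in any library, left 16262 genes for 6 pairwise comparisons. Ratios had 0.5 added to each count. Ratios have 95% intervals by the Clopper-Pearson method and levels have exact Poisson ones. Both cover counting error only, and both treat each read as a separate molecule, which PCR copies are not. With 1 library per construct no test between constructs was possible. The size rule was tried on simulated counts that held counting error only. That cannot show how the rule behaves when libraries also vary for other reasons. Coordinates, exon lengths and GC content came from GENCODE 29 (GRCh38), which all 58735 identifiers matched, and biotypes from the deposited table.

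Members, lists and rules were chosen with earlier results of these data known. Genes named were the 12 members with the most reads, those that passed the size rule, members of the lists, those nearest the read minimum and those with a changed neighbour within 50 kb; others are said to be named after their values were seen. Alternatives were total counts, DESeq2 1.42.0 size factors, read minimums of 100 and 400, no filter, a pseudocount of 5, no interval condition, thinned counts, removal of a trend on GC content and length, and members overlapping no gene.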

Additional observations from a re-analysis of the deposited data

How the results depend on the processing

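No paired analysis was possible because each construct has 1 library, and for the same reason no library could be left out. Of the 113 members, 9 passed in P1048R, 7 in T1202K and 6 in C1233W against WT. Other read minimums changed these counts together with the number of members. With the 113 members kept, the largest move was to 15 in P1048R on total counts. A minimum of 100 reads gave 207 members, with 19, 14 and 16 passing against WT, 2 in T1202K against P1048R, 4 in C1233W against P1048R and 7 in C1233W against T1202K. A minimum of 400 reads left 53 members, with 5 passing in P1048R and 3 in C1233W against WT. The 52 members that overlap no other gene gave 5 in P1048R, 4 in T1202K and 1 apart in WT, AC245060.5, because PVT1 and EPB41L4A-AS1 overlap other genes. No share over all genes is given beside the counts of these lists, which differ in size. They show only how the counts depend on the list.

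Scaling by total counts raised the median of all genes to 0.18, 0.17 and 0.12 in P1048R, T1202K and C1233W over WT. Under it 15 members passed in P1048R, 12 higher and 3 lower, and in T1202K 7 were higher and 3 lower, whereas the main split there was 3 and 4. The shares of all genes passing under it are not given, so these counts have no background. C1233W over T1202K kept 1 member under total counts and 1 with the GC and length trend removed. Without the filter on low genes the background changed, and with it the median of all genes. The members' medians relative to all genes were then 0.18, 0.078 and 0.20 in P1048R, T1202K and C1233W, against 0.03, −0.10 and 0.09. The sign of this relative median thus turned in T1202K, while the members passing stayed at 9, 7 and 6.

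Of 24 passing ratios of single members, 21 passed under total counts, 23 under DESeq2 size factors, 21 with a pseudocount of 5, 23 with thinned counts and 22 with the trend removed, and none changed sign. Those lost were near 2-fold. AC011815.1 in P1048R gave −0.78 under total counts, −0.96 under DESeq2 size factors, −0.95 with the pseudocount and −0.94 thinned. AC005909.1 in T1202K gave −0.85 under total counts and −0.82 with the trend removed, and AC083843.2 in C1233W over T1202K gave 0.98 and 0.97. The pseudocount gave 0.98 for SOX21-AS1 in P1048R and 0.97 for LINC01012 in C1233W. The cause was not tested. Depth set the width of the intervals, which for JPX, at 231 reads, was 0.02 to 1.26 in P1048R over WT.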

Other observations

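The 94 lincRNAs with 100 to 199 reads fell short of the read minimum, and of them the 3 nearest to it are named above. Of these, 7 were higher and 3 lower in P1048R than in WT, 3 and 4 in T1202K, and 8 and 2 in C1233W, with medians of −0.10, −0.13 and 0.08. As shares these were 7.45% and 3.19% in P1048R, 3.19% and 4.26% in T1202K, and 8.51% and 2.13% in C1233W, beside 9.24% and 7.65%, 7.29% and 3.75%, and 11.4% and 1.95% of all 1385 genes with that many reads. The genes given here were chosen after their values were seen. LINC00106, in the pseudoautosomal region of the X, had 35, 12 and 25 reads in P1048R, T1202K and C1233W, against 50 in WT, and was lower in T1202K at −2.29 (−3.38 to −1.41) and in C1233W at −1.13 (−1.90 to −0.43). AC019069.1 had 30, 51 and 23 reads, against 69 in WT, and passed lower in P1048R at −1.54 (−2.22 to −0.92) and in C1233W at −1.71 (−2.48 to −1.03). NUP50-DT, which starts beside the nucleoporin gene NUP50, had 57, 38 and 56 reads, against 21 in WT, and passed higher in P1048R at 1.07 and in C1233W at 1.25. AC027020.2 was lower in P1048R at −1.27 and in T1202K at −1.26. None of the 94 passed against WT in all 3 mutants.

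Among the 5 lincRNAs set aside by name, SNHG15 had 1232, 1080 and 661 reads in P1048R, T1202K and C1233W, against 393 in WT, and SNHG4 had 293, 350 and 267, against 459. MALAT1 had 854, 672 and 1334 reads, against 2001 in WT, and NEAT1 had 1475, 1025 and 2544, against 2124. These are raw reads, not scaled for library size, which on the TMM scale was smallest in WT and largest in P1048R. They are given without ratios or intervals.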
